A study of Mus musculus with 6 samples.

Results

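The microRNAs (miRNAs) miR-23, miR-27 and miR-24 are made from a pair of paralogous gene clusters, and 5 probes of this mouse array carry their names: 1org-23a, 1org-23b, 1org-27a, 1org-27b and 1org-24. They were taken by their probe IDs, 5 of the 171 miRNA probes and of 178 probes in all. The arrays compared total RNA of mouse CD4+25+ cells, named natural regulatory T cells in the series title, with total RNA of CD4+25- conventional T cells, both RNAs on the same two-colour array. There were 6 arrays, for 3 biological replicates that were each run with the dyes both ways: the CD4+25+ RNA carried Cy5 on arrays 1, 3 and 5 and Cy3 on arrays 2, 4 and 6. The sources used here give no strain, age, tissue of origin, treatment or number of mice per sample, and nothing says that the replicates came from separate animals, so the p-values measure only the spread between these samples.

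A miRNA guides a silencing complex to messenger RNAs that pair with its seed, bases 2 to 8 from the 5′ end, and lowers their output. Each of the clusters encodes 1 miR-23, 1 miR-27 and 1 miR-24 in a single precursor transcript. Members of the same transcript start in equal number and can part in later processing or turnover, neither of which was measured here. In T cells the clusters are known as brakes on effector programmes: miR-24 and miR-27 limit the cytokine output of type 2 helper cells, and excess miR-27 impairs the function of regulatory T cells. CD25, the alpha chain of the interleukin-2 receptor, marks regulatory T cells but also conventional T cells shortly after activation, and the array has no probe for a messenger RNA such as that of Foxp3, so the labelled cell types could not be checked by their defining genes.

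In the RefSeq annotation of the mouse genome (GRCm38.p6, plus strand throughout) the a cluster lies on chromosome 8. Its hairpins are Mir23a at chr8:84208518-84208592, Mir27a at chr8:84208672-84208758 and Mir24-2 at chr8:84208815-84208921, together 404 bases, and no protein-coding gene of the table spans them. The b cluster lies on chromosome 13, with Mir23b at chr13:63300484-63300557, Mir27b at chr13:63300712-63300784 and Mir24-1 at chr13:63301208-63301275, together 792 bases inside the span of Aopep, a protein-coding aminopeptidase gene. The mature sequences of 4 of the 5 named miRNAs were read from the RefSeq table, as the arm now called 3p, which the plain number named when such arrays were made. They are shown to make plain what a probe can tell apart, with the seed in capitals; miR-23b is named only.
miR-23a-3p: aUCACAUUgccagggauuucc
miR-27a-3p: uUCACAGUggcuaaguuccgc
miR-27b-3p: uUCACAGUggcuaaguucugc
miR-24-3p: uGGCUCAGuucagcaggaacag

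The mature miR-27a and miR-27b share 20 of 21 bases and the seed. They differ by the substitution C19U, with the miR-27a base first and positions counted from 1 at the 5′ end. The seeds of miR-23a and miR-27a share 6 of 7 bases and differ by U7G, whereas neither shares a base at the same seed position with miR-24. The mature miR-24 of Mir24-1 and of Mir24-2 is the same in all 22 bases, so the probe 1org-24 adds up both clusters, and only the miR-23 and miR-27 probes can bear on a against b. The base sequences of the probes were not used here, and how far a probe for an a form also binds the b form was not tested. Of 1738 mature entries in the table, 4 further miRNAs carry the miR-24 seed, none with a probe of that number here, and no further entry carries the miR-27 seed or the miR-23a seed. The table lists no mature miR-23b, so this search could not include it.

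All values are log2 ratios of CD4+25+ over CD4+25- cells. The deposited ratio was read as Cy5 over Cy3, and the arrays with CD4+25+ cells in Cy3 were multiplied by -1. No source states that direction, which is only the likely one given how the labels list the channels, nor the base of the logarithm, and a table whose arrays had been turned already would need no turning. A ratio gives no level: it cannot say how much of a miRNA either population holds, and in bulk RNA fewer cells of a type and less RNA per cell cannot be told apart. On the turned arrays the median miRNA probe lay between -0.31 and 0.097 with CD4+25+ in Cy5 and between 1.29 and 1.83 with CD4+25+ in Cy3. Arrays of one orientation correlated over the miRNA probes at 0.52 to 0.62 (Cy5) and 0.90 to 0.92 (Cy3), and turned arrays of opposite orientation at -0.25 to 0.37. The values of the members are therefore given by orientation. Errors are SDs over n = 3 replicate values, each the mean of 2 arrays of opposite dye; the labels do not say which arrays form a replicate, so of the 6 ways to pair them the largest SD and the largest limma adjusted p stand here.

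All 5 miRNAs had a mean ratio above 0, and the order was miR-23a, miR-23b, miR-24, miR-27b, miR-27a. Each was above 0 on at least 5 of 6 arrays, the exception being array 4 for 4 of them. As deposited, 5 of 5 passed the test as higher in CD4+25+ cells, beside 67.3% of all miRNA probes, so that count is no result about these miRNAs. Their median ratio was 1.11 against 0.82 over all 171. After each array was centred on the median of its miRNA probes, 1 of 5, miR-23a, passed as higher, beside 5.26% of all probes, and 22.8% passed as lower; 5.26% passed as higher under both zero points. The median of the 5 was then 0.33, against 0.051 over all probes.

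**Figure D1:**
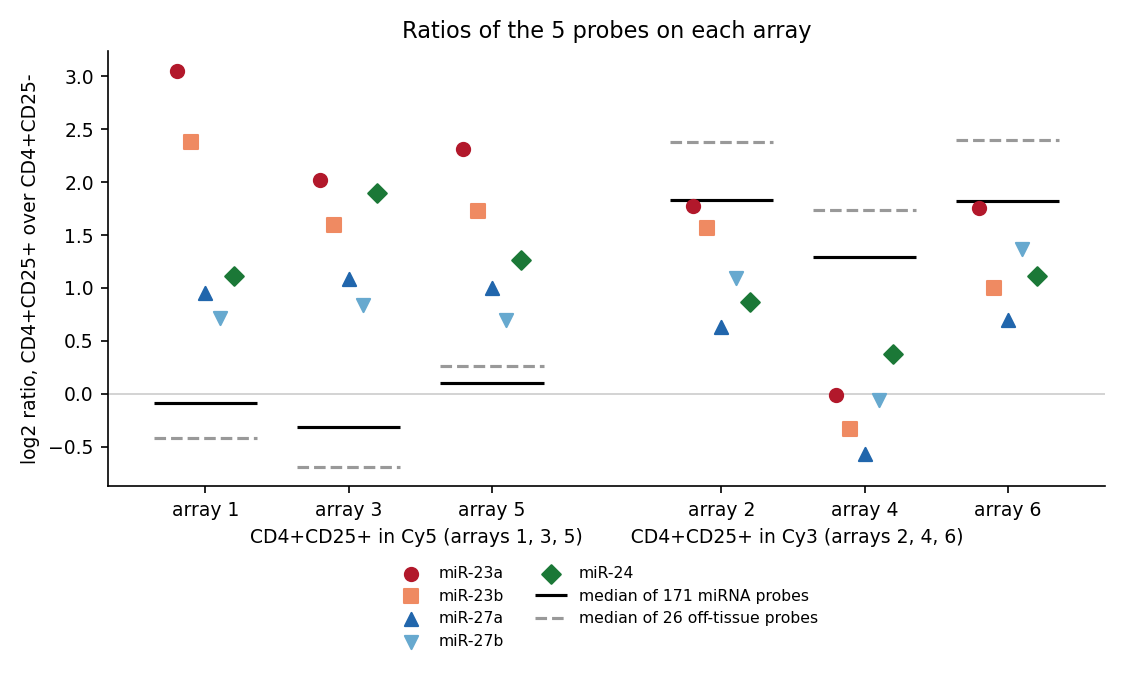
Log2 ratio of CD4+25+ over CD4+25- cells for the 5 probes (symbols) on each array, with arrays grouped by the dye of the CD4+25+ RNA. The solid bar is the median of the 171 miRNA probes and the dashed bar the median of 26 probes for miRNAs of other tissues; the 5 probes lie above both bars with CD4+25+ in Cy5 and below both with CD4+25+ in Cy3.

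The miR-23 probes stood highest. On arrays 1, 3 and 5 miR-23a had ratios of 3.05, 2.02 and 2.32, and on arrays 2, 4 and 6 it had 1.78, -0.011 and 1.75. Array 4 is the low one, and the orientations do not overlap. The mean was 1.82 ± 0.730 (SD, n = 3), a 3.53-fold ratio (limma adjusted p = 0.00464), the third largest mean of the array. Relative to the array median it was 1.05 ± 0.547 (adjusted p = 0.00243), or 2.06-fold, but that mean joined 2.56 ± 0.501 with CD4+25+ in Cy5 to -0.47 ± 0.715 with CD4+25+ in Cy3 (SD, n = 3 arrays each). Of 9 fits that each left out 1 pair of opposite-dye arrays, 7 kept the call as deposited; it was lost without arrays 3 and 2 (1.78, limma adjusted p = 0.0594) and without arrays 5 and 6 (1.71, adjusted p = 0.0841). The centred call was kept in 8 of 9 and lost without arrays 1 and 6 (0.80, adjusted p = 0.133).

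miR-23b, the paralogue from chromosome 13, had 2.38, 1.60 and 1.73 on arrays 1, 3 and 5 and 1.56, -0.33 and 1.00 on arrays 2, 4 and 6. The arrays fall in much the same order as for miR-23a, again with array 4 below 0 and no overlap between the orientations. The mean was 1.32 ± 0.670 (SD, n = 3; limma adjusted p = 0.00569). Relative to the array median it was 0.55 ± 0.547 and did not pass (adjusted p = 0.0675).

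miR-24, which cannot be assigned to a cluster, was the one member above 0 on 6 of 6 arrays. Its ratios were 1.11, 1.90 and 1.27 on arrays 1, 3 and 5 and 0.87, 0.38 and 1.11 on arrays 2, 4 and 6. The orientations meet at 1.11 (arrays 1 and 6), and array 4 was again the lowest. The mean was 1.11 ± 0.383 (SD, n = 3; limma adjusted p = 0.00569), and 0.33 ± 0.364 relative to the array median (adjusted p = 0.216).

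The miR-27 probes stood lowest of the 5, with means below the median of all miRNA probes. miR-27a had 0.96, 1.09 and 1.00 on arrays 1, 3 and 5 and 0.64, -0.57 and 0.70 on arrays 2, 4 and 6. The first 3 lie close together and above all of the others. Its mean was 0.63 ± 0.384 (SD, n = 3; limma adjusted p = 0.0272), and -0.14 ± 0.313 relative to the array median (adjusted p = 0.689). miR-27b had 0.72, 0.84 and 0.70 on arrays 1, 3 and 5 and 1.09, -0.062 and 1.37 on arrays 2, 4 and 6. Its values with CD4+25+ in Cy5 lie inside the range of those with CD4+25+ in Cy3, which held both extremes. Its mean was 0.77 ± 0.409 (SD, n = 3; limma adjusted p = 0.0127), and 0.0018 ± 0.363 relative to the array median (adjusted p = 0.997). As deposited, both miR-27 probes passed in 3 of the 9 fits that left out a pair of arrays, those that left out array 4, and miR-23b and miR-24 in 7 of 9, failing where miR-23a failed.

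The place of the 5 miRNAs within an array turned with the dye. By rank from the highest of 171 turned ratios, a measure that depends on neither zero point nor spread, they held ranks from 2 to 36 on the arrays with CD4+25+ in Cy5 and from 90 to 135 on those with CD4+25+ in Cy3. miR-23a ranked 3, 2 and 4 on arrays 1, 3 and 5, then 90 on arrays 2 and 6 and lower still on array 4. No rank of any of the 5 overlapped between the orientations. The share of all probes without such overlap was not counted, so this is no result about these miRNAs. Other probes, among them miR-191 and miR-103, also lay above every array median with CD4+25+ in Cy5 and below every one with CD4+25+ in Cy3. With median-centred values, all 5 had a dye effect (CD4+25+ in Cy5 minus CD4+25+ in Cy3), from 1.70 ± 0.343 (SE) for miR-27b (limma adjusted p = 0.000367) to 3.04 ± 0.392 for miR-23a (adjusted p = 9.73e-06); 33.9% of all probes passed in that direction. As deposited, miR-23a (1.29 ± 0.487 SE, adjusted p = 0.0219) and miR-23b (1.16 ± 0.477, adjusted p = 0.0336) had a dye effect and the other 3 did not pass (adjusted p of 0.125 to 0.933), beside 70.2% of all probes in either direction.

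Taken one orientation at a time after median centring, the calls had opposite signs. With CD4+25+ in Cy5 alone, 4 of 5 passed as higher (miR-27b did not, limma adjusted p = 0.0517), beside 7.02% of all probes. With CD4+25+ in Cy3 alone, 4 of 5 passed as lower (miR-23a did not, adjusted p = 0.12), beside 34.5%. If the authors had already turned the swapped arrays before deposit, the centred values would be 1.52 ± 0.607 for miR-23a, 1.45 ± 0.552 for miR-23b, 1.25 ± 0.330 for miR-27a, 1.19 ± 0.346 for miR-24 and 0.85 ± 0.368 for miR-27b (SD, n = 3), and 5 of 5 would pass as higher (adjusted p of 0.000228 to 0.00111), beside 34.5% of all probes. With the ratio read as Cy5 over Cy3, the centred value of miR-23a was above 0 and passed whether or not the arrays were turned; with Cy3 over Cy5 it was -1.05 and passed as lower (adjusted p = 0.00243).

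**Figure D2:**
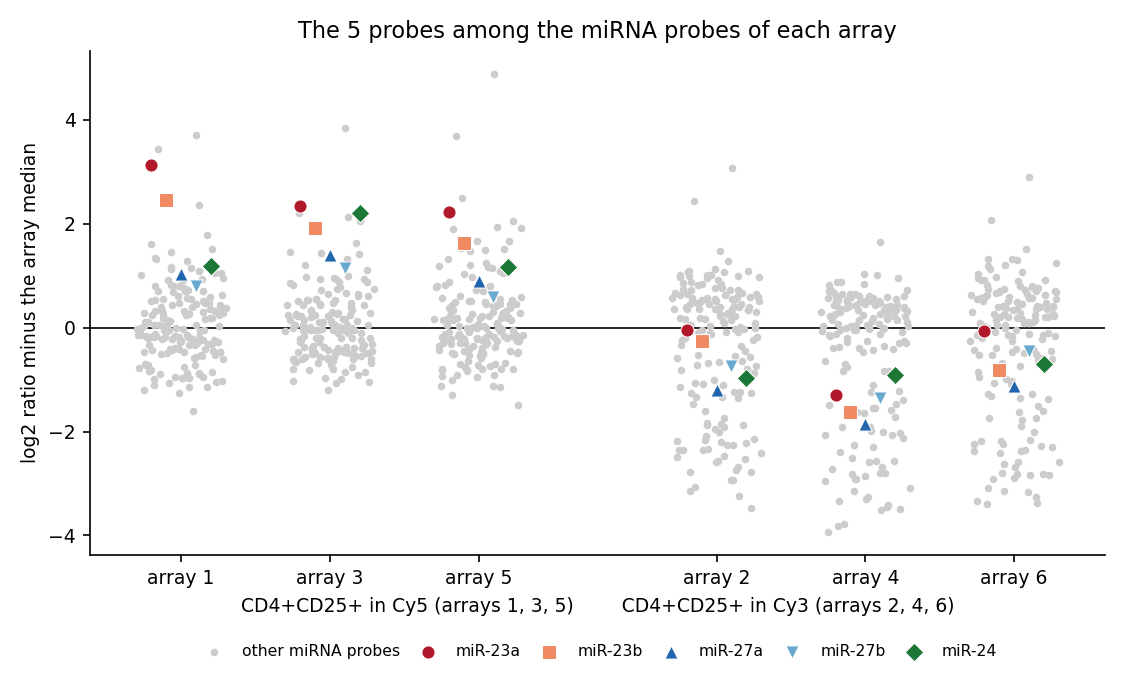
Log2 ratio minus the array median for every other miRNA probe (grey points, spread sideways at random) and for the 5 probes (coloured symbols) on each array. The 5 lie between ranks 2 and 36 of 171 with CD4+25+ in Cy5 and between ranks 90 and 135 with CD4+25+ in Cy3. Other probes, among them miR-191 and miR-103, also lie above the array medians in the first orientation and below them in the second. The share of all probes that do so was not counted.

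Array 4 had the lowest mean of these miRNAs, both as deposited and relative to the array median. The mean of the 5 turned ratios was -0.12 on array 4 against 1.19 on both array 2 and array 6, and from 1.40 to 1.64 on the arrays with CD4+25+ in Cy5. Relative to the array medians, the means were -1.41 on array 4 and -0.64 on arrays 2 and 6. miR-24 did not stand apart there, with -0.91 on array 4 against -0.96 on array 2 and -0.71 on array 6. Other probes were also lower on array 4, among them miR-21 (-1.58 against -0.65 and -0.59) and miR-191 (-2.01 against -1.23 and -1.28). The share of all probes that were lower there was not counted. Without array 4, in a fit of the other 5 arrays with a column for the dye, the ratios rose to 2.11 for miR-23a, 1.59 for miR-23b, 1.21 for miR-24, 0.99 for miR-27b and 0.84 for miR-27a, and 5 of 5 again passed (limma adjusted p of 0.000469 to 0.00195). With all arrays 67.3% of all miRNA probes passed as higher. The share without array 4 was not counted, so that count is no result about these miRNAs.

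The a cluster was next set against the b cluster by differences between probes on the same array, which do not depend on the array's zero point. miR-23a exceeded miR-23b on 6 of 6 arrays, by 0.68, 0.42 and 0.59 on arrays 1, 3 and 5 and by 0.22, 0.32 and 0.75 on arrays 2, 4 and 6. The orientations overlapped, and array 4 was not apart. The mean difference was 0.50 ± 0.200 (SD, n = 3), with a 95% interval of -0.40 to 1.39 from limma's pooled variance, and it did not pass (adjusted p = 0.313). Of the other probes, 28.8% differed from miR-23b and 82.9% from miR-23a in either direction.

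miR-27a minus miR-27b changed sign with the dye. It was 0.24, 0.25 and 0.30 on arrays 1, 3 and 5 and -0.46, -0.51 and -0.67 on arrays 2, 4 and 6, tight within each orientation and with no overlap. The mean was -0.14 ± 0.070 (SD, n = 3), with an interval of -0.87 to 0.59 (limma adjusted p = 0.875), where 23.5% of the other probes differed from miR-27b and 25.3% from miR-27a. The dye effect on this difference was 0.81 ± 0.337 (SE; adjusted p = 0.0481).

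Averaged over its miR-23 and miR-27 probes, the a cluster had 1.23 ± 0.523 and the b cluster 1.05 ± 0.484 (SD, n = 3). The a minus b difference was 0.46, 0.34 and 0.45 on arrays 1, 3 and 5 and -0.12, -0.093 and 0.041 on arrays 2, 4 and 6, so the a cluster led with CD4+25+ in Cy5 and the values straddled 0 with CD4+25+ in Cy3. The mean was 0.18 ± 0.071, and an exact two-sided sign-flip test gave p = 0.25, the smallest that 3 replicates allow. This test could not pass a threshold of 0.05.

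**Figure D3:**
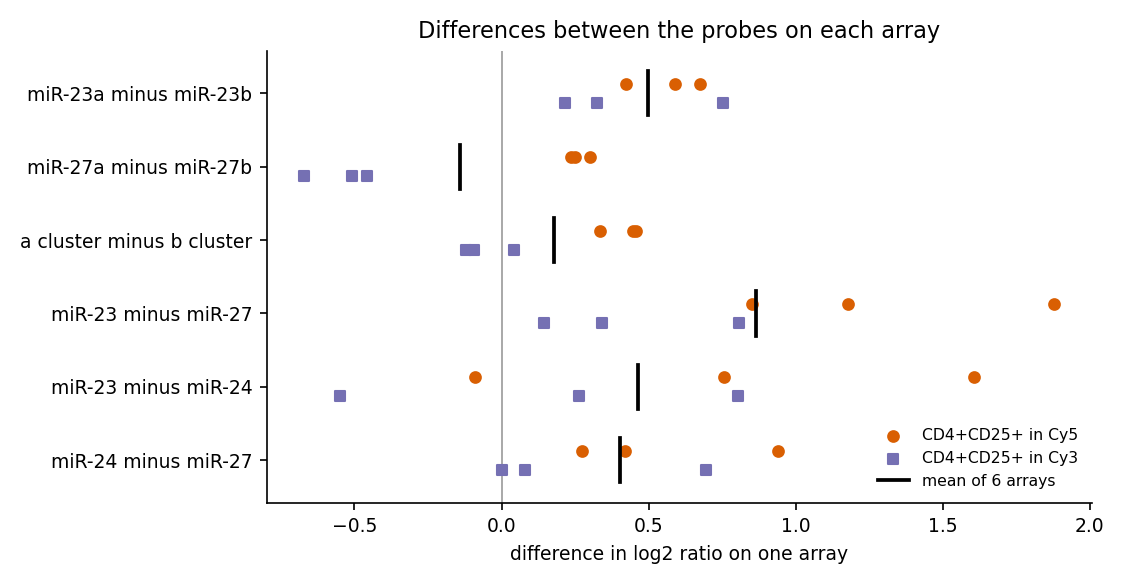
Differences in log2 ratio between probes on the same array, for the a and b forms, the cluster means and the 3 seed families; circles are arrays with CD4+25+ in Cy5, squares arrays with CD4+25+ in Cy3 and the bar is the mean of 6 arrays. miR-23a minus miR-23b and miR-23 minus miR-27 are above 0 on all 6 arrays, and miR-27a minus miR-27b is above 0 in 1 orientation and below 0 in the other.

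For scale, 15 pairs of miRNA names on the array differ in a final a or b: 14 whose probe IDs differ in that letter alone, and miR-10a and miR-10b, whose IDs also differ in their prefix. The miR-23 pair was 1 of 5 with the same sign on all 6 arrays, beside miR-30, miR-130, miR-10 and miR-15. By the size of its mean it had rank 6 of 15, and it had the narrowest range, 0.54 between its lowest and highest array. The miR-27 pair had rank 11 by size. The largest pair differences were those of miR-30a and miR-30b at 1.79 ± 0.510 and of miR-15a and miR-15b at -0.85 ± 0.746 (SD, n = 3). The median size over the 15 was 0.41, below the miR-23 pair and above the miR-27 pair. The pairs next in size to miR-23 were miR-10a and miR-10b (0.73) and let-7a and let-7b (0.42). These values are a description and were not tested against each other.

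**Figure D4:**
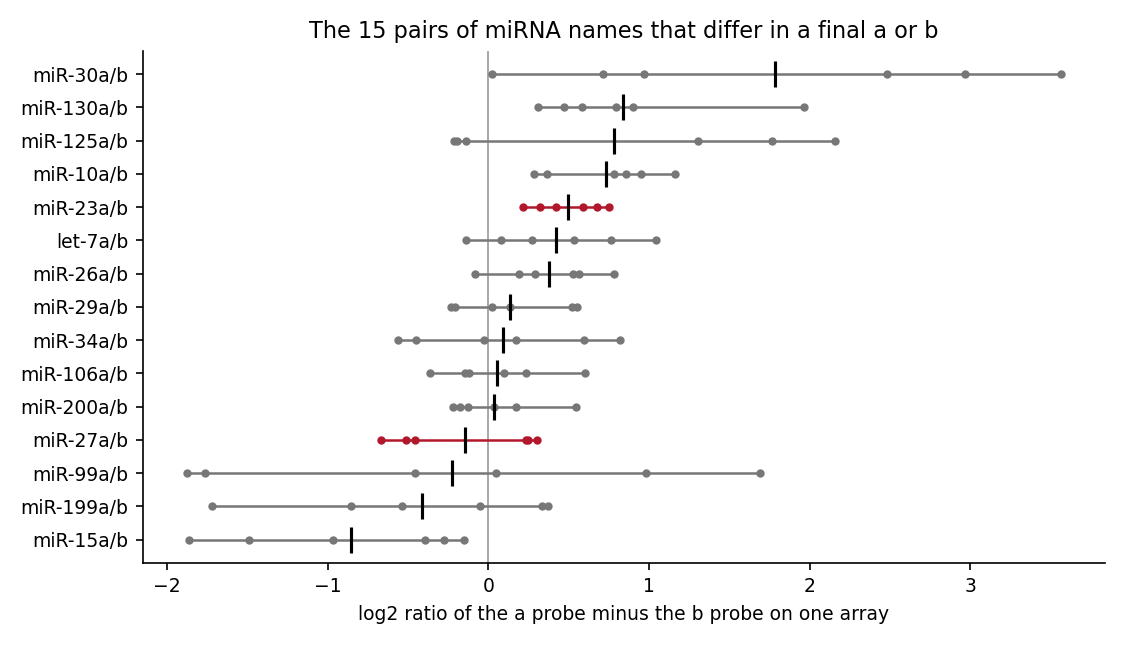
Log2 ratio of the a probe minus the b probe for the 15 pairs of miRNA names that differ in a final a or b; points are the 6 arrays, lines their range and black ticks their mean. The miR-23 pair (red) has the narrowest range, 0.54, and lies above 0 on every array, and the miR-27 pair (red) spans 0.

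The miR-23 family averaged 1.57 ± 0.696, miR-24 1.11 ± 0.383 and the miR-27 family 0.70 ± 0.391 (SD, n = 3). miR-23 minus miR-27 was above 0 on 6 of 6 arrays, with 1.88, 0.85 and 1.18 on arrays 1, 3 and 5 and 0.81, 0.14 and 0.34 on arrays 2, 4 and 6. The gap was smaller on each array with CD4+25+ in Cy3, and smallest on array 4. Its mean was 0.87 ± 0.433, and the exact sign-flip test was again at its floor (p = 0.25).

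miR-24 minus miR-27 was also above 0 on 6 of 6 arrays, though by as little as 0.002 on array 2, with a mean of 0.40 ± 0.364 (SD, n = 3; exact sign-flip p = 0.25). miR-23 minus miR-24 had no common sign: it was 1.61 on array 1 and -0.55 on array 4, with a mean of 0.46 ± 0.763 (exact sign-flip p = 0.5). The means thus had the order miR-23, miR-24, miR-27, with the step from miR-23 to miR-24 uneven between arrays.

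Of the 10 pairs of single probes, 2 passed in limma. miR-23a exceeded miR-27a by 1.19 ± 0.436 (SD, n = 3; adjusted p = 0.00285), from 0.56 on array 4 to 2.10 on array 1. These are neighbours within the a cluster, and 25.3% of the other probes differed from miR-27a in either direction. miR-23a exceeded miR-27b by 1.04 ± 0.447 (adjusted p = 0.00797), from 0.051 on array 4 to 2.34 on array 1, and that difference depended on the dye (1.34 ± 0.603 SE, adjusted p = 0.0361). As 82.9% of the probes differed from miR-23a, these calls are no result about the miR-27 probes. Each was kept in 3 of the 9 fits that left out a pair of arrays (adjusted p up to 0.124 and 0.223), and neither passed with CD4+25+ in Cy3 alone (0.92 and 0.37) or with no array turned (0.27 and 0.67).

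The other pairs did not pass, among them every pair of neighbours in the order of the 5. The means of miR-23a minus miR-23b and of miR-27a minus miR-27b were larger in size than their own SDs, and those of miR-23b minus miR-24 and miR-24 minus miR-27b were smaller. The largest difference that did not pass was miR-23a minus miR-24 at 0.71 ± 0.789 (SD, n = 3; limma adjusted p = 0.127, interval -0.25 to 1.68), where 26.5% of the other probes differed from miR-24 and 82.9% from miR-23a. It passed without array 4 (0.91, adjusted p = 0.0378), without arrays 3 and 4 (1.14, adjusted p = 0.0431), with neighbouring array numbers as pairs (adjusted p = 0.0426), with a dye column (adjusted p = 0.0498) and with CD4+25+ in Cy5 alone (1.04, adjusted p = 0.0344). miR-23b minus miR-27a, at 0.69 ± 0.427 (adjusted p = 0.153), passed without array 4 (0.75, adjusted p = 0.0296), with a dye column (adjusted p = 0.0458) and with CD4+25+ in Cy5 alone (0.89, adjusted p = 0.0304). Within the b cluster, miR-23b minus miR-27b was 0.55 ± 0.457 (adjusted p = 0.270, interval -0.40 to 1.49). It was above 0 on all 3 arrays with CD4+25+ in Cy5 (mean 1.15), where it passed on its own (adjusted p = 0.0183), and near 0 with CD4+25+ in Cy3 (mean -0.057). The miR-23 lead over miR-27 passed within the a cluster and not within the b cluster; the difference between these 2 leads was not tested.

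A further probe on the array, 1org-189, carries a name that the RefSeq table lists as a synonym of Mir24-1, the miR-24 gene of the b cluster. miR-189 was the early name of the opposite arm of that hairpin, whose sequence is shown because it can tell the clusters apart where mature miR-24 cannot.
miR-24-1-5p: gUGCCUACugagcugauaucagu
miR-24-2-5p: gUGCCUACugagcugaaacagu

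The 1org-189 probe had ratios of 0.71, 0.33 and -0.11 on arrays 1, 3 and 5 and 2.19, 0.81 and 1.36 on arrays 2, 4 and 6. As deposited, it was higher with CD4+25+ in Cy3, with a dye effect of -1.14 ± 0.452 (SE; limma adjusted p = 0.0283). That sign is opposite to those of the miR-23 probes, miR-27a (0.76) and miR-24 (0.64), and the same as that of miR-27b (-0.050). Among the members, only the miR-23 effects passed. Relative to the array median the dye effect of 1org-189 was 0.60 ± 0.368 (adjusted p = 0.195), of the same sign as those of the 5 members. Its mean was 0.88 ± 0.552 (SD, n = 3; adjusted p = 0.00803), and 0.11 ± 0.461 relative to the array median (adjusted p = 0.772), close to the median miRNA probe under both zero points. Both opposite arms start with the same seed, so a probe could tell them apart only by their 3′ ends.

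Likeness to other probes was measured as the root mean square difference over the 6 turned, median-centred arrays, as a description. The probe nearest to miR-23a was miR-146 (0.40), a miRNA induced by NF-kB signalling, followed by miR-23b (0.53) and miR-21 (0.77). The nearest to miR-23b were miR-21 (0.35), a miRNA that rises on T cell activation, miR-99b (0.45) and miR-23a (0.53). miR-24 was nearest to miR-99b (0.35), miR-22 (0.39) and miR-21 (0.48). The nearest to miR-27a were miR-191 (0.22), miR-103 (0.31) and miR-27b (0.43), and those to miR-27b were miR-200a (0.24), miR-200b (0.33) and miR-149 (0.35). Both miR-200 probes are epithelial markers, counted among the off-tissue probes below. miR-23a, miR-23b and miR-27a each had their paralogue among their 3 nearest, miR-27b did not, and no probe of another seed family of the clusters was among the 3 nearest of any of the 5. Just beyond that cut, miR-27a and miR-27b had ranks 4 and 5 of 170 from miR-24, and miR-24 had rank 5 from miR-23b. Farther off, miR-23a had rank 59 from miR-27a and rank 110 from miR-27b. Counted from miR-23a, however, miR-27a had rank 8 and miR-27b rank 9, so these ranks depend on the probe they are counted from.

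Other miRNA groups give the background for these values. Of 14 miRNAs listed as induced by T cell activation, 14 passed as higher as deposited (median 1.09), beside 67.3% of all probes. After median centring miR-214 and miR-146 passed as higher (list median 0.31), beside 5.26% of all probes. The 5 members had medians of 1.11 and 0.33, but the centred medians by orientation were 0.35 (Cy5) and 0.13 (Cy3) for the activation list against 1.53 and -0.86 for the members. Of 26 off-tissue probes, whose miRNAs are known from nerve, muscle, liver or epithelial cells or from embryonic stem cells, 24 passed as higher as deposited, beside the same 67.3%, with a median of 0.87 and a range of 0.55 to 1.25. After centring 0 of 26 passed in limma, beside 5.26% of all probes as higher and 22.8% as lower, and 2 had an unadjusted p under 0.05. miR-27a and miR-27b lay inside that range, miR-24 too, and miR-23b and miR-23a above it. On the separate arrays these 26 had medians from -0.69 to 0.26 with CD4+25+ in Cy5 and from 1.74 to 2.39 with CD4+25+ in Cy3, so the members stood above them in the first orientation and below them in the second.

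Markers of other blood or stromal cells were mostly called as deposited, and fewer were after centring. miR-223, known from myeloid cells, had 4.12 ± 0.855 (SD, n = 3; limma adjusted p = 0.000103), and 3.34 after centring (adjusted p = 6.77e-06). The endothelial or stromal list had 10 of 10 probes higher as deposited (median 1.04), beside 67.3% of all probes, and 2 of 10, miR-214 and miR-126*, after centring, beside 5.26%. The single erythroid probe, miR-144, had 0.69 (limma adjusted p = 0.0302), and -0.079 after centring (adjusted p = 0.837). Ratios give no level of these markers in either population, and their part in the ratios of the 5 miRNAs was not tested.

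**Figure D5:**
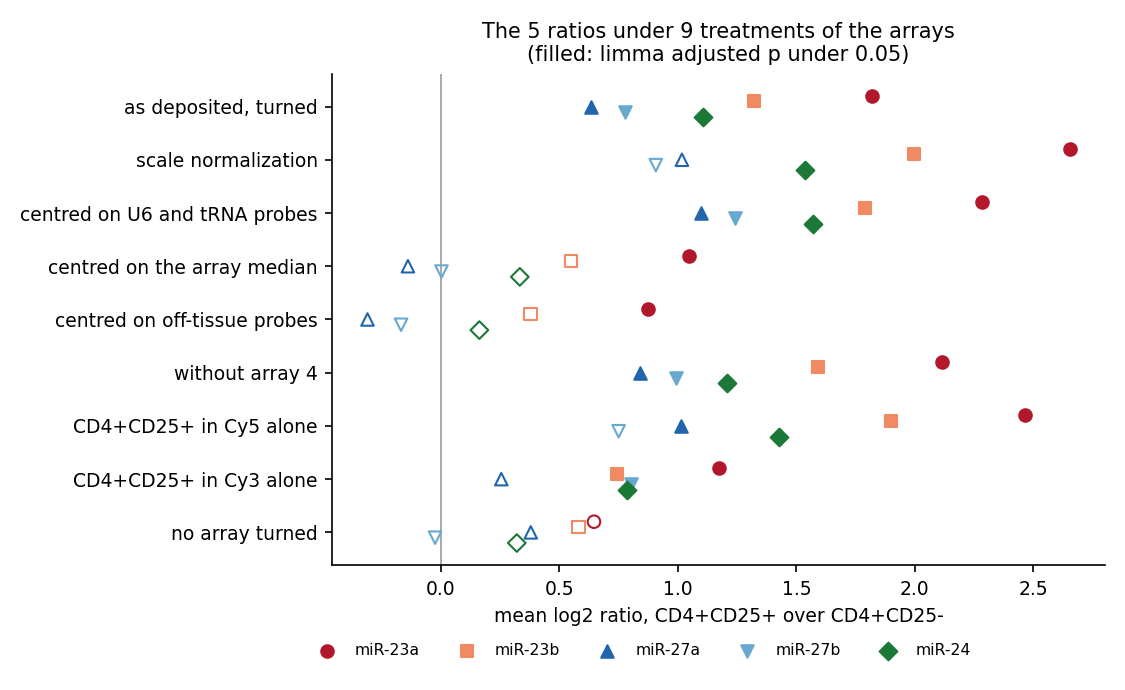
Mean log2 ratio of the 5 miRNAs under 9 treatments of the arrays; filled symbols passed the limma test (adjusted p under 0.05) and open symbols did not. miR-23a is filled in 8 of the 9, and open where no array was turned. As deposited and turned, 67.3% of all miRNA probes passed as higher, and 5.26% did after median centring. The rows for 1 orientation alone and for no turning keep the deposited zero point. After median centring, miR-23a was -0.47 and did not pass with CD4+25+ in Cy3 alone, and was 1.52 and passed with no array turned. The order miR-23a, miR-23b, miR-24 holds in all but the Cy3 orientation alone, where miR-24 lies at 0.79 and miR-23b at 0.74.

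The number of the 5 that passed moved with the zero point and the spread given to the arrays. Centring on the mean of the U6 and tRNA probes, small RNAs often used as references, left all 5 higher, from 1.10 for miR-27a to 2.28 for miR-23a (limma adjusted p of 8.14e-06 to 0.0110). That centring moves the mean ratio of every probe by the same amount, and 67.3% of all miRNA probes passed as higher before it. The share of all probes that passed was not counted under any setting of this paragraph, so these counts are no result about the 5 miRNAs. Centring on the off-tissue probes left miR-23a alone at 0.88 (adjusted p = 0.0257). Scale normalization divided the ratios of each array by a measure of size, the median of their absolute values. Without centring, that size holds the array's zero point as well as its spread. The turned array medians were -0.31 to 0.097 with CD4+25+ in Cy5 and 1.29 to 1.83 with CD4+25+ in Cy3. The median absolute deviation about them was 0.65 to 0.70 and 0.81 to 1.08. Arrays with CD4+25+ in Cy5 thus gained weight through both. Scale normalization left miR-23a at 2.65, miR-23b at 2.00 and miR-24 at 1.54, and the miR-27 probes lost their calls (adjusted p = 0.0506 for miR-27a and 0.0679 for miR-27b). After scale normalization 5 of the 10 pairs passed, each a miR-23 probe above another member: miR-23a above miR-24 (1.12), miR-27a (1.64) and miR-27b (1.75), and miR-23b above miR-27a (0.98) and miR-27b (1.09).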

How the data were processed

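The authors deposited 1 normalized log ratio per probe and array, in a value table read here as log2; the log base, the centring and the direction are not stated, and no scanner signals entered, which leaves the signal over background unknown; the number of arrays limits the precision. The software for normalization and image reading was not given in the sources used here. Arrays with CD4+25+ cells in Cy3 were multiplied by -1, 3 replicate values were formed from pairs of opposite-dye arrays under each of 6 pairings, and limma 3.58.1 (R 4.3.3; intercept fit, eBayes) was run on 171 miRNA probes, with Benjamini-Hochberg adjustment and a threshold of 0.05. The largest p over the pairings was kept. Dye effects came from limma on the 6 turned arrays as single samples, with an intercept and a column for the dye. The fits named with a dye column or without array 4 also used single arrays. Their p-values treat the opposite-dye arrays of a replicate as independent. limma pools the variance over probes, so a p does not follow from a probe's own SD. For differences between members, 1 member was subtracted from every probe on each array, each member of a pair served as the reference in turn, and the larger adjusted p was kept. Cluster and family differences had exact two-sided sign-flip tests. The 7 probes for U6, tRNA and other small RNAs were not tested.

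The members, the marker and comparison lists and the tests were chosen with earlier results of these data known. The named probes are the 5 members, the 3 nearest probes of each, and the a and b pairs that are largest or next in size to those of the members; those with 1 sign on all arrays, miR-10 and miR-189 were named after their values were seen. Alternatives covered the zero point, the spread, the pairing, a dye column, each orientation alone, no turning, the opposite reading, robust eBayes, a filter on noisy probes and left-out arrays. Leaving out array 4, centring with scale normalization, calls under both zero points, and pairing a and b probes by miRNA name were chosen after seeing the data. The fits were tested on simulated data. Platform annotation gave a symbol for 3 of the 5 probes; names are those of the probe IDs.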

Additional observations from a re-analysis of the deposited data

Results flagged for a closer look

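Each value here is the mean with CD4+25+ in Cy5 minus the mean with CD4+25+ in Cy3, on turned arrays, and passed limma's test of that difference. As deposited, it was 1.29 for miR-23a and 1.16 for miR-23b. Relative to the array median, it was 3.04 for miR-23a, 2.90 for miR-23b, 2.50 for miR-27a, 2.39 for miR-24 and 1.70 for miR-27b. Among the differences between members, it was 1.34 for miR-23a minus miR-27b, 1.21 for miR-23b minus miR-27b and 0.81 for miR-27a minus miR-27b, each of which involves miR-27b.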

How the results depend on the processing

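The count of members called higher as deposited, 5 of 5, fell to 1 with median centring, to 1 with off-tissue centring, to 1 with centring and scale normalization together, to 1 where both zero points were required, to 3 with scale normalization and to 0 with no array turned. It ranged from 0 to 5 over the 9 fits that left out a pair of arrays, and was 0 without arrays 3 and 2 and without arrays 5 and 6. The median-centred count of 1 became 2 with a dye column and 2 without array 4, 4 with either orientation alone (higher in Cy5, lower in Cy3) and 5 with no array turned, and ranged from 0 to 2 with a pair of arrays left out. Apart from the shares given above, the share of all probes that passed was not counted under these settings. Signs turned for miR-27a with median centring (-0.14) and off-tissue centring (-0.31), for miR-27b with off-tissue centring (-0.17) and no turning (-0.025), and for centred miR-23a with CD4+25+ in Cy3 alone (-0.47). The opposite reading of the ratio turns every value by construction: miR-23a -1.82 (centred -1.05), miR-23b -1.32, miR-24 -1.11, miR-27b -0.77 and miR-27a -0.63.

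miR-27a minus miR-27b became 0.11 with scale normalization, 0.26 with CD4+25+ in Cy5 alone and 0.40 with no turning. The a minus b cluster difference moved to 0.38 with scale normalization, 0.41 with Cy5 alone and -0.058 with Cy3 alone, and miR-23 minus miR-27 to 1.36, 1.30 and 0.43. With Cy3 alone, miR-23b minus miR-27b was -0.057, miR-23b minus miR-24 -0.043 and miR-24 minus miR-27b -0.014. With no turning, miR-24 minus miR-27a was -0.059. With a pair of arrays left out, miR-23b minus miR-24 ranged from -0.17 to 0.58. miR-23a minus miR-23b kept its sign and missed the threshold under every alternative run. Pairing neighbouring array numbers changed 1 call, that of miR-23a minus miR-24. Apart from the opposite reading, the cause of these changes was not tested.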

Other observations

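Other clustered miRNAs also took different places in the 2 orientations. The 3 probes of the miR-106b-25 cluster had a median of 0.32 relative to the array median with CD4+25+ in Cy5 and of -2.38 with CD4+25+ in Cy3, and 3 of 3 passed as lower over both (limma, median-centred), beside 22.8% of all probes. The 5 probes of the cluster that begins with miR-17 had -0.12 and -2.46, and 4 of 5 passed as lower. The miR-221 and miR-222 probes, by contrast, had a median of 0.41 with CD4+25+ in Cy5 and 0.50 with CD4+25+ in Cy3, and 0 of 2 passed in limma, though 2 had an unadjusted p under 0.05.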
